A study of Homo sapiens with 8 samples.

Results

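The regions described here were distal accessible regions retained in every sample of an ATAC-seq study of lung cancer cells. Peaks of 8 deposited lists on chromosomes 1 to 22 and X were merged wherever they overlapped by 1 bp, which gave 69078 regions. A region was kept when it held a peak in all 8 lists and lay more than 1 kb from both ends of every protein-coding gene record in the RefSeq annotation of GRCh38. There were 5779 such regions, 38.3% of the 15070 regions with a peak in all 8 lists. The other 9291 lay at a protein-coding gene end. The presence of a peak chose the regions, so presence and retention are described without a test.

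ATAC-seq marks open chromatin by the insertion of sequencing adapters with a transposase. The human lung cancer lines H1975 and HCC44, both labelled as wild-type in genotype, were given DMSO, the solvent control, or ACBI1, a degrader of the SWI/SNF subunits SMARCA2, SMARCA4 and PBRM1, for 96 h. The label gives the ACBI1 dose as 1 mM, and whether that unit is right could not be checked from the files. Each of the 4 combinations of line and treatment had 2 replicates, numbered 1 and 2, and 1 peak list per replicate. The series title is about SMARCA4-mutant lung cancer and the STING pathway, and these libraries compare each line with and without the degrader. Degradation acts on protein, so peak lists hold no check of it. No source says that replicates came from separate cultures, so the p-values below measure the spread between these libraries only.

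The lists held 22115 to 50323 peaks on these chromosomes, and the 4 ACBI1 lists (22115 to 27659) were shorter than the 4 DMSO lists (41003 to 50323). H1975 ACBI1 replicate 2 had the shortest list. Peak lists hold no read counts, so the read depth behind each value is unknown. All 5 epithelial markers checked (EPCAM, KRT8, KRT18, KRT19 and CDH1) had a peak at a gene end in all 8 lists, and PTPRC of leukocytes and PECAM1, CDH5 and VWF of endothelium had none in any list. Of the other markers, NKX2-1 had a peak in 5 lists, SFTPB in 2, SFTPC in 8, CD3E in 3, CD14 in 8, COL1A1 in 8, COL1A2 in 4 and PDGFRA in 4.

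SWI/SNF complexes slide and evict nucleosomes with the energy of ATP, by way of the ATPase SMARCA2 or SMARCA4, and PBRM1 belongs to the PBAF form. They are known for keeping enhancers open, often at sites bound by AP-1, the dimer of FOS and JUN proteins. Promoters rich in CpG dinucleotides and genes read by RNA polymerase III, such as tRNA genes, hold open chromatin in most cell types. RefSeq lists further transcription starts within many genes, and a start of this kind can lie far from both ends of the gene record.

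The label distal held only with respect to the ends of protein-coding gene records. Of the 5779 regions, 2051 (35.5%) lay within 1 kb of an inner coding start, meaning a listed start of a protein-coding gene away from the gene's ends, or of an end of a non-coding gene or pseudogene. The other 3728 (64.5%) lay at neither, 1810 of them inside a protein-coding gene and 1918 outside. The first group is illustrated by the 250 bases before the start of PCNA, the sliding clamp of DNA replication, and of DANCR, a long non-coding RNA gene. The third sequence, at RUNX1-AS1, overlaps a retained region, chr21:34836131-34837212, that had a much lower strength with ACBI1, and the fourth, at an inner start of the kinase gene DCLK1, lies in a distal region that had a peak in all 4 DMSO lists and in no ACBI1 list. Capitals mark matches, on either strand, to the motif letters of 10 factors or promoter elements. The sequences are RefSeq's, on GRCh38.p14, and read 5′ to 3′ on the gene's strand.
PCNA, chr20:5119959-5120208, minus strand: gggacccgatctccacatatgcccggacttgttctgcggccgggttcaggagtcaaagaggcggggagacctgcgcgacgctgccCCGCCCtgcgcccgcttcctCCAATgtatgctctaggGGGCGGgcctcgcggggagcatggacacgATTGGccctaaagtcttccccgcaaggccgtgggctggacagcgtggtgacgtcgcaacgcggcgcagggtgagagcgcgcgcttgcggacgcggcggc
DANCR, chr4:52712144-52712393, plus strand: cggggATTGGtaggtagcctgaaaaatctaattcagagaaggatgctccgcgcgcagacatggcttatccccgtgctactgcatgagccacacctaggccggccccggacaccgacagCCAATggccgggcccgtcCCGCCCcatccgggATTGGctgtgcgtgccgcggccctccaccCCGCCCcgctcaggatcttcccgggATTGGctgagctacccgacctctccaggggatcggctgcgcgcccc
RUNX1-AS1, chr21:34836063-34836312, plus strand: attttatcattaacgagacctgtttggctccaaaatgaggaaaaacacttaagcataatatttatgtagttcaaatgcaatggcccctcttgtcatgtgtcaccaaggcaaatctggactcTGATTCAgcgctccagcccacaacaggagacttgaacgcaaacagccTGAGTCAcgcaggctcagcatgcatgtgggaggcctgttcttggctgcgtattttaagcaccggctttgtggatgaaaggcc
DCLK1, chr13:35855668-35855917, minus strand: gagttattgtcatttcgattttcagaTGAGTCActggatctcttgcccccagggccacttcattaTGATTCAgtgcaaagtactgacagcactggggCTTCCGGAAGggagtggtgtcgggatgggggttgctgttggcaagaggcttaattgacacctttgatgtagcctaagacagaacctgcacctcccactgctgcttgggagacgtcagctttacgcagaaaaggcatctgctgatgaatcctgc

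The PCNA sequence was 69.2% G or C, held 2 GC boxes (GGGCGG) and 2 CCAAT boxes (CCAAT), and held no AP-1 motif (TGANTCA). The DANCR sequence was 66.8% G or C, with 2 GC boxes and 4 CCAAT boxes and no AP-1 motif. The RUNX1-AS1 sequence was 46.8% G or C and held 2 AP-1 motifs and no match to the other 9. The DCLK1 sequence was 50.8% G or C, with 2 AP-1 motifs and 2 overlapping matches, 1 on each strand, to the ETS motif (CCGGAAG). RUNX1-AS1 and DCLK1 were chosen after their values were seen.

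Strength was taken from the authors' −log10 q, the peak caller's significance after correction, as the highest value of any peak in the region. At PCNA it was 287 and 285 in the H1975 DMSO lists and 397 and 263 in the H1975 ACBI1 lists, and 145 and 97.5 in the HCC44 DMSO lists and 143 and 141 in the HCC44 ACBI1 lists. The treatments overlapped in both lines. At DANCR it was 159 and 144 with DMSO against 114 and 79.3 with ACBI1 in H1975, and 99.4 and 81.1 with DMSO against 68.2 and 55.6 with ACBI1 in HCC44, so every ACBI1 list was below every DMSO list of its line. At RUNX1-AS1 it was 94.6 and 85.6 with DMSO against 32.9 and 15.2 with ACBI1 in H1975, and 89.8 and 76.1 with DMSO against 24.7 and 25.3 with ACBI1 in HCC44. The DCLK1 region had 39.9 and 36.2 in the H1975 DMSO lists and 62.0 and 47.5 in the HCC44 DMSO lists.

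Many regions lay close to the limits of the definition. A further 1862 distal regions had a peak in 7 of 8 lists. Of these, 767 lacked it in H1975 ACBI1 replicate 2 and 447 in HCC44 ACBI1 replicate 2, 180 in HCC44 ACBI1 replicate 1 and 36 in H1975 ACBI1 replicate 1, and 432 in 1 of the DMSO lists. On the side of distance, 338 retained distal regions had their nearest protein-coding gene end 1 to 2 kb away, and 580 retained regions counted as gene-end regions had it 1 to 1000 bp away.

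Most distal regions open in all DMSO lists did not keep a peak in every ACBI1 list. Of 18897 distal regions with a peak in all 4 DMSO lists, 5779 (30.6%) had one in all 4 ACBI1 lists, 7060 (37.4%) had none in any ACBI1 list, and 6058 had one in 1 to 3 of them. Of 10183 such regions at protein-coding gene ends, 9291 (91.2%) were retained and 231 (2.27%) had no ACBI1 peak.

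Annotation split the distal regions into unlike groups. Each region was put in the first class that fitted, in the order inner coding start, tRNA gene, other short RNA gene, long non-coding RNA (lncRNA) gene, and pseudogene, miRNA or snoRNA gene. At inner coding starts, 880 of 1045 DMSO-shared regions (84.2%) were retained in all ACBI1 lists and 45 (4.31%) were open in none. At tRNA genes 86 of 90 (95.6%) were retained, and no region was lost from all 4 ACBI1 lists. At other short RNA genes 40 of 41 (97.6%) were retained. The lncRNA genes kept 811 of 1625 (49.9%), with 22.7% lost, and the pseudogene, miRNA and snoRNA class kept 234 of 475 (49.3%), with 26.3% lost. Regions at none of these kept 1810 of 8194 (22.1%) inside protein-coding genes and 1918 of 7427 (25.8%) outside them, with 42.8% and 40.5% lost. The inner starts belonged to 845 genes, while 0.637% of the lost distal regions lay at such a start. Non-coding gene ends were within 1 kb of 23.8% of the retained distal regions, 26.4% of the retained gene-end regions and 7.04% of the lost distal regions. Position inside a protein-coding gene did not separate them, at 50.9% of retained and 52.6% of lost distal regions.

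**Figure D1:**
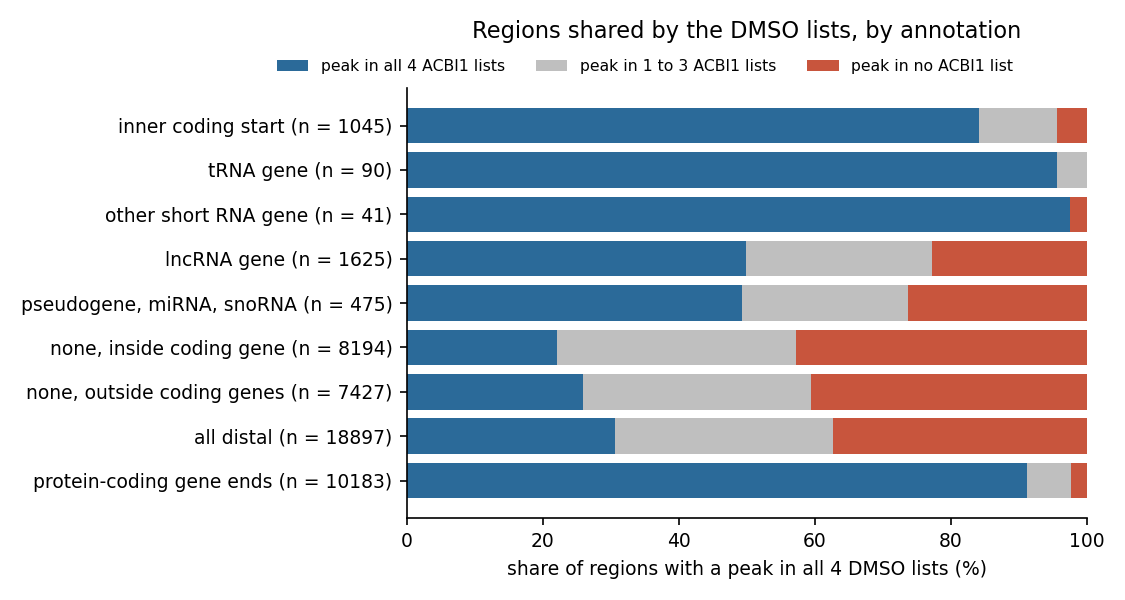
Share (%) of regions with a peak in all 4 DMSO lists that had a peak in all, in 1 to 3 or in none of the 4 ACBI1 lists, by annotation class; n is the number of regions in each bar. The bars for tRNA genes (95.6% retained) and inner coding starts (84.2%) lie near that for protein-coding gene ends (91.2%), and those for regions at no listed start or gene end reach 22.1% and 25.8%.

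Strength in DMSO moved with retention. Distal regions with a peak in all 4 DMSO lists were divided into 5 equal bins by their mean percentile of −log10 q over those lists, from a median −log10 q of 22.8 in the weakest bin to 73.3 in the strongest. The share retained was 20.9%, 20.4%, 23.6%, 30.9% and 57.1% from the weakest to the strongest bin. In each bin, regions at no listed start or non-coding gene end had the lowest share of the classes compared. In the weakest bin, 67 of 136 regions at inner coding starts (49.3%), 13 of 16 at tRNA or other short RNA genes (81.3%), 88 of 280 at lncRNA genes (31.4%) and 588 of 3255 at no listed start or gene end (18.1%) were retained. In the strongest bin these shares were 99.1% of 427, 100% of 52, 79.6% of 426 and 45.5% of 2769. Gene-end regions within the same limits of strength were retained at 55.5% in the weakest and 99.1% in the strongest bin. The shorter ACBI1 lists and strength in DMSO both move with presence, and their part in the retained shares was not tested.

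**Figure D2:**
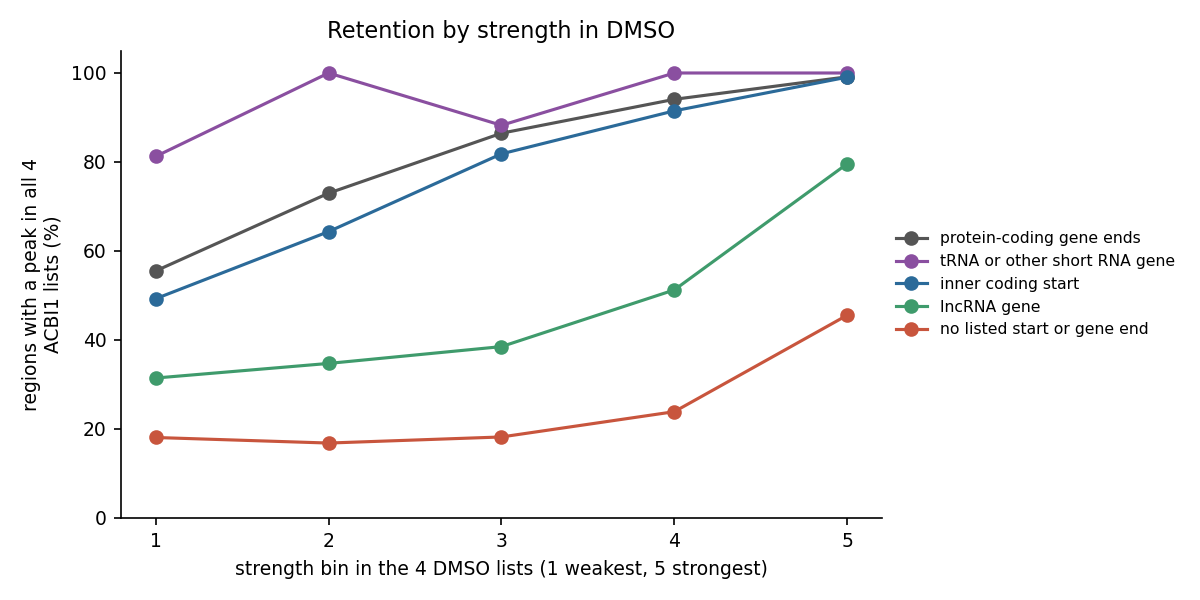
Share (%) of regions with a peak in all 4 DMSO lists that had one in all 4 ACBI1 lists, against the bin of strength in DMSO (1 weakest, 5 strongest), for 5 annotation classes. Regions at no listed start or gene end stay lowest in every bin, from 18.1% in the weakest to 45.5% in the strongest.

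Retained distal regions lay nearer to genes than lost ones. The median distance to the nearest protein-coding gene end was 15712 bp for retained and 31672.5 bp for lost distal regions. The share retained was 50.4% at 1 to 2 kb, 44.4% at 2 to 5 kb, 35.2% at 5 to 20 kb, 26.9% at 20 to 100 kb and 16.9% beyond 100 kb. The same order held for regions at no listed start or non-coding gene end, at 41.8%, 36.3%, 27.3%, 21.4% and 12.5%. By chromosome, the share ran from 21.95% on chromosome 18 and 23.2% on chromosome 4 to 38.1% on chromosome 17 and 51.0% on chromosome 19.

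The merged regions were 315 to 5520 bp wide, with a median of 1093 bp, against 1403 bp for retained gene-end regions and 643 bp for lost distal regions. The median summed peak width in the retained distal regions was 797 and 739 bp with DMSO against 777 and 564 bp with ACBI1 in H1975, and 907 and 914 bp with DMSO against 733 and 736 bp with ACBI1 in HCC44. Peaks were narrower in both HCC44 ACBI1 lists than in both DMSO lists, and in H1975 the treatments overlapped. In retained gene-end regions it was 1148 and 1086 bp with DMSO against 1063 and 855 bp with ACBI1 in H1975, and 1250 and 1246 bp with DMSO against 1024 and 1009 bp with ACBI1 in HCC44, without overlap in either line. The log2 ratio of distal to gene-end median width differed by 0.0004 between treatments, averaged over the lines (two-sided exact permutation test within lines, n = 2 per group, p = 1.0). With only peaks of −log10 q of at least 20 it was higher with ACBI1 by 0.0649 (same exact permutation test, p = 0.0556, the smallest possible), so the ratio depended on this minimum. In both ACBI1 lists of both lines 1525 retained distal regions (26.4%) were narrower than in both DMSO lists, against 35.8% of all 15070 retained regions and 41.7% at gene ends. The reverse held for 297 (5.14%), against 2.72% of all and 1.22% at gene ends.

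To compare strength across lists of unlike length, every list was ranked over the same 15070 retained regions, from 0 for the weakest to 100 for the strongest −log10 q. A rank is relative: where distal regions are lower, gene-end regions are higher. The median rank of the retained distal regions in H1975 was 35.6 and 33.9 with DMSO against 29.9 and 29.0 with ACBI1. In HCC44 it was 41.1 and 40.3 with DMSO against 32.6 and 30.3 with ACBI1. Both ACBI1 lists were below both DMSO lists in each line. The difference was −5.29 in H1975 (pooled replicate SD 0.969, n = 2 per group) and −9.26 in HCC44 (SD 1.21, n = 2 per group), and −7.28 over both lines (two-sided exact permutation test within lines, 36 arrangements, p = 0.0556). That p is the smallest the design can give, so no test of this kind can pass 0.05, and within a single line the smallest is 0.333. By the authors' fold enrichment in place of −log10 q, the difference was −4.81 (two-sided exact permutation test, p = 0.111).

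The median −log10 q itself was 55.8 and 54.6 with DMSO against 49.5 and 36.4 with ACBI1 in H1975, and 45.4 and 40.1 with DMSO against 30.6 and 27.7 with ACBI1 in HCC44. In the retained gene-end regions it was 81.5 and 83.1 with DMSO against 95.3 and 74.0 with ACBI1 in H1975, and 54.3 and 47.5 with DMSO against 46.7 and 44.4 with ACBI1 in HCC44. Thus the distal median was lower with ACBI1 in both lines without overlap. The gene-end median was lower with ACBI1 without overlap in HCC44, and overlapped between treatments in H1975.

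Region by region, 1460 retained distal regions (25.3%) ranked lower in both ACBI1 lists than in both DMSO lists of both lines, against 15.2% of all 15070 retained regions and 826 (8.89%) at gene ends. In the other direction 1067 (18.5%) ranked higher, against 19.5% of all and 1875 (20.2%) at gene ends. By fold enrichment 1019 (17.6%) were lower, against 13.3% of all, and 568 (9.83%) were higher, against 14.3% of all. So the distal share was above the background for lower strength by both measures. For higher strength it was near the background by −log10 q and below it by fold enrichment.

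The lower ranks came mainly from regions at no listed start or non-coding gene end. Of these 3728, 1139 (30.6%) were lower and 655 (17.6%) higher in both lines by −log10 q, against 15.2% and 19.5% of all 15070 retained regions. Their median rank in H1975 was 32.0 and 30.4 with DMSO against 24.6 and 24.1 with ACBI1, and in HCC44 38.1 and 37.0 with DMSO against 27.4 and 25.4 with ACBI1. The difference over both lines was −9.01 (two-sided exact permutation test, p = 0.0556). Inside protein-coding genes it was −12.1, with 639 of 1810 regions (35.3%) lower and 268 (14.8%) higher. Outside them it was −6.08, with 500 of 1918 (26.1%) lower and 387 (20.2%) higher. Regions at inner coding starts had a median rank of 48.2 and 48.5 with DMSO against 50.1 and 49.8 with ACBI1 in H1975, and 47.6 and 46.2 with DMSO against 49.3 and 50.3 with ACBI1 in HCC44, a difference of +2.22 (two-sided exact permutation test, p = 0.0556). With only peaks of −log10 q of at least 20 it was +1.19 (same exact permutation test, p = 0.222), with 0.0 in H1975 and +2.37 in HCC44. Of these 880 regions, 114 (12.95%) were lower and 170 (19.3%) higher, so the higher share was near that of all retained regions. Their median −log10 q itself overlapped between treatments in H1975. In HCC44 it was lower with ACBI1, at 49.3 and 42.8 with DMSO against 39.5 and 38.1. At lncRNA genes the difference was −4.13, with 171 of 811 regions (21.1%) lower and 154 (19.0%) higher. At pseudogenes, miRNA and snoRNA genes it was −0.0017 (p = 1.0 by the same exact permutation test). By rank of fold enrichment the difference was +2.83 at inner coding starts, −3.15 at lncRNA genes, and −8.72 inside and −5.30 outside protein-coding genes at no listed start or non-coding gene end, with the same signs as by −log10 q. The pseudogene, miRNA and snoRNA class differed by measure: by −log10 q it was +2.39 in H1975 and −2.39 in HCC44, which cancelled, and by fold enrichment −6.76 and −9.58, or −8.17 over both lines (two-sided exact permutation test, p = 0.0556). Adjusted over the 7 classes by the Benjamini-Hochberg method, the smallest p was 0.0778.

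**Figure D3:**
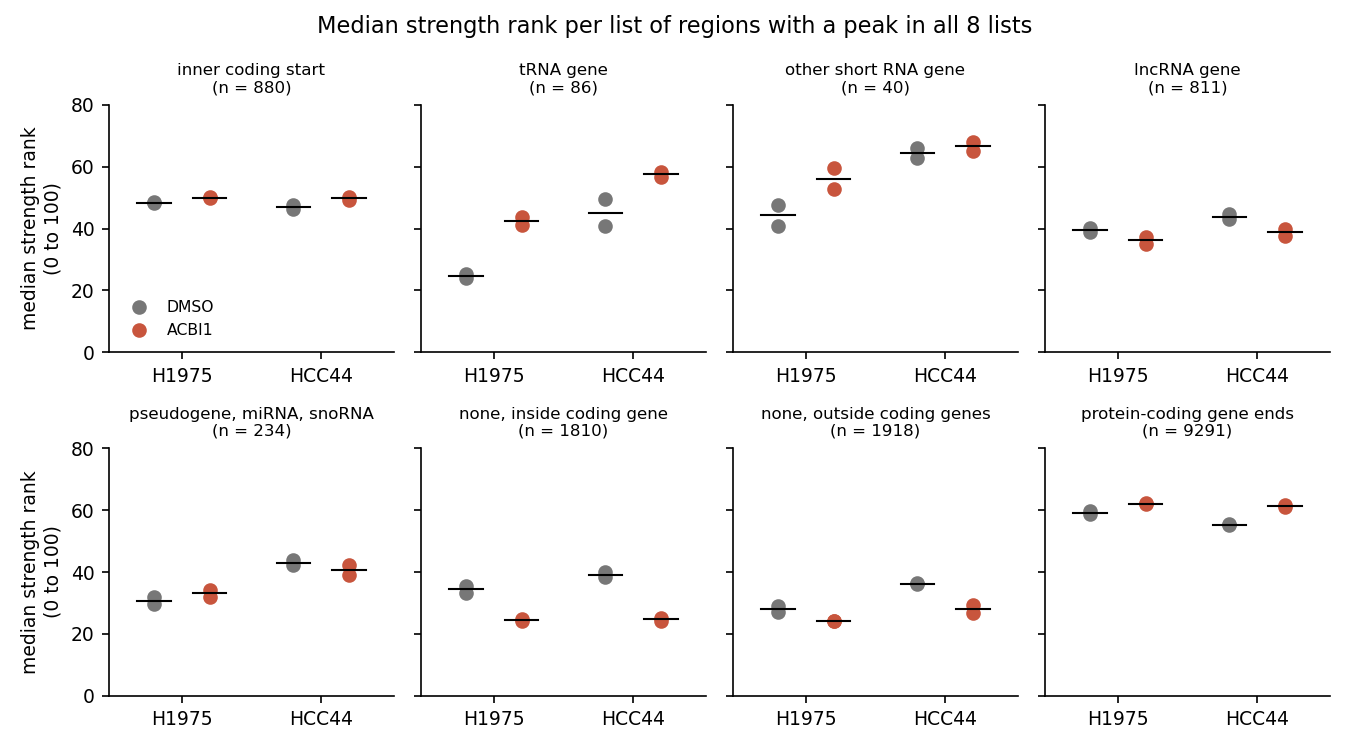
Median strength rank (0 weakest to 100 strongest, by −log10 q) in each of the 8 lists, for the 7 classes of retained distal regions and for retained gene-end regions; each point is 1 list, grey for DMSO and red for ACBI1, and the line is the mean of 2 lists. Regions at none of the listed starts or gene ends sit lower with ACBI1 in both lines, and inner coding starts and gene ends slightly higher; tRNA and other short RNA genes sit higher by this measure and lower by rank of fold enrichment.

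tRNA genes, which supply the adaptors of translation and are read by RNA polymerase III, had 88 retained distal regions at 118 of the 443 tRNA genes in the annotation, 2 of them counted above as inner coding starts. The 118 genes covered 22 isotype letters, U for selenocysteine and X for initiator methionine included, and 45 anticodons. Of the 88 regions, 34 lay on chromosome 6, 33 of them between 25 and 30 Mb, and 16 on chromosome 1. In H1975 the median rank of the 86 regions of the class was 23.9 and 25.4 with DMSO against 43.7 and 41.1 with ACBI1. In HCC44 it was 40.7 and 49.6 with DMSO against 56.6 and 58.5 with ACBI1. By this measure the class was higher by 15.1 over both lines (two-sided exact permutation test, p = 0.0556). The median −log10 q itself was 43.5 and 45.7 with DMSO against 67.5 and 48.8 with ACBI1 in H1975. In HCC44 it was 45.2 and 44.65 with DMSO against 43.97 and 42.56 with ACBI1, lower without overlap. The higher rank there is thus relative to the other retained regions. In both lines 29 regions (33.7%) ranked higher and 1 (1.16%) lower, against 19.5% and 15.2% of all 15070 retained regions. By rank of fold enrichment, however, the class was lower by 7.68 over both lines (same exact permutation test, p = 0.0556). The median summed width at tRNA genes was 897 and 998 bp with DMSO against 1087 and 867 bp with ACBI1 in H1975, and 1152 and 1128 bp with DMSO against 1084 and 1077 bp with ACBI1 in HCC44. The direction at these genes is uncertain, since the measures of strength gave opposite signs. Many tRNA genes have near-identical copies, and whether reads were shared among them was not tested.

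Among tRNA regions, the strongest was at TRI-TAT2-1, an isoleucine tRNA gene (chr2:42809784-42811465, mean rank over the 8 lists 92.6). The next were TRQ-TTG1-1, a glutamine tRNA gene on chromosome 17 (90.7), and TRI-TAT2-2 on chromosome 6 (89.7). The widest tRNA region, chr1:146035173-146039762, spanned TRE-CTC1-1, TRG-TCC2-1, TRH-GTG1-1 and TRK-CTT2-1. Its −log10 q was 59.3 and 49.9 with DMSO against 76.6 and 43.3 with ACBI1 in H1975, and 39.1 and 31.6 with DMSO against 30.7 and 31.4 with ACBI1 in HCC44, so the treatments overlapped in H1975.

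Other short RNA genes held a small, mostly retained set. Retained distal regions lay at all 4 vault RNA genes, all 4 Y RNA genes, 3 of 4 genes of the scRNA class, the telomerase RNA gene, and 28 of 154 genes annotated as small nuclear RNAs, most of which serve in splicing (27 regions, of 27 distal regions open in all DMSO lists). Like the tRNA class, the 40 regions of this class were higher by rank of −log10 q, by 7.03 over both lines (two-sided exact permutation test, p = 0.111), and lower by rank of fold enrichment, by 9.65 (p = 0.0556 by the same exact permutation test). Their median −log10 q itself overlapped between treatments in H1975. In HCC44 it was lower with ACBI1, at 61.3 and 51.6 with DMSO against 51.4 and 46.4. At TERC, the RNA template of telomerase (chr3:169764363-169765328), −log10 q was 125 and 125 with DMSO against 186 and 95.4 with ACBI1 in H1975, and 37.8 and 29.7 with DMSO against 42.9 and 30.9 with ACBI1 in HCC44, with overlap in both lines. RN7SL1, which encodes the RNA of the signal recognition particle (chr14:49585572-49587106), had 113 and 114 with DMSO against 152 and 118 with ACBI1 in H1975, and 76.1 and 62.3 with DMSO against 70.8 and 68.2 with ACBI1 in HCC44. Its H1975 values were higher in both ACBI1 lists, and its HCC44 values overlapped. At RN7SL2, on the same chromosome, the rank difference was +25.9 in H1975 and −5.40 in HCC44.

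The VTRNA1 genes encode small RNAs of the vault particle. VTRNA1-1, VTRNA1-2 and VTRNA1-3, neighbours on chromosome 5, had mean ranks of 67.3, 42.9 and 62.8. VTRNA2-1, placed in the same class by the annotation, had 36.2. The rank differences of all 4 between treatments lay between −1.75 and 4.98 in H1975 and between −13.8 and 9.45 in HCC44. RNU4ATAC and RNU6ATAC encode RNAs of the minor spliceosome. The RNU4ATAC region had a rank difference of +9.55 in H1975 and +13.8 in HCC44, and the RNU6ATAC region −0.080 and −5.91.

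The list of non-coding RNA genes examined had 53 genes, of which 24 had a retained distal region at an end, 13 had only a retained region that also lay at a protein-coding gene end, and 16 had neither. Of 29 distal regions at these genes open in all DMSO lists, 25 (86.2%) were retained and 1 was lost, beside 49.9% retained in the whole lncRNA class and 97.6% in the class of other short RNA genes. Among the 24 were the snoRNA host genes GAS5, SNHG3, SNHG5, SNHG12, SNHG15, SNHG16 and SNHG29, whose introns carry guides of RNA modification. SNHG15 was the strongest of these 7, with −log10 q of 205 and 209 with DMSO against 186 and 171 with ACBI1 in H1975, and 62.4 and 58.3 with DMSO against 66.2 and 53.2 with ACBI1 in HCC44. It was lower in both ACBI1 lists of H1975 and overlapped in HCC44. GAS5 and SNHG3 were among the weakest retained regions, with mean ranks of 5.72 and 3.30. SNHG5 had a rank difference of +3.33 in H1975 and +35.0 in HCC44, and SNHG12 of −4.16 and −20.5.

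MALAT1, an abundant nuclear RNA, had a retained region at each end. The first, chr11:65496941-65499046, had −log10 q of 53.0 and 99.9 with DMSO against 69.0 and 90.8 with ACBI1 in H1975, and 29.8 and 30.7 with DMSO against 30.9 and 31.3 with ACBI1 in HCC44, so the treatments overlapped in H1975 and were separated by less than 0.2 in HCC44. The second, at the end that holds the small RNA gene MASCRNA, had rank differences of +10.8 and +7.47. NORAD, an RNA that binds Pumilio proteins, had 149 and 127 with DMSO against 149 and 92.1 with ACBI1 in H1975, and 70.1 and 59.0 with DMSO against 67.5 and 42.9 with ACBI1 in HCC44, with overlap in both lines. Of the 25 regions at genes on this list, that at DANCR was the only one with a lower −log10 q in every ACBI1 list than in every DMSO list of both lines, with rank differences of −23.6 in H1975 and −13.0 in HCC44.

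Of the miRNA host genes on the list, MIR17HG, MIR31HG and MIR222HG had a retained distal region, the only DMSO-shared distal region at MIR155HG had no ACBI1 peak, and MIR22HG, MIR100HG, MIR205HG and MIRLET7BHG had no distal region open in all DMSO lists. MIR17HG, host of an oncogenic miRNA cluster (chr13:91347078-91349288), had a −log10 q of 48.1 and 51.3 with DMSO against 66.7 and 49.3 with ACBI1 in H1975, and 40.9 and 37.2 with DMSO against 32.6 and 37.5 with ACBI1 in HCC44. MIR31HG had rank differences of +9.38 and +16.6, and MIR222HG of −0.793 and −2.56. PVT1, beside MYC, was among the 10 strongest retained distal regions by −log10 q, with a mean rank of 99.1.

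Of 90 distal regions at miRNA genes open in all DMSO lists, 48 were retained and 17 were lost. The retained ones lay at 50 miRNA genes, and RefSeq gave a mature sequence for 46 of these, with 64 mature names and 62 distinct seeds (bases 2 to 8). A seed sets which messages a miRNA pairs with, and 2 seeds were shared by a pair of retained loci. They are shown with the seed in capitals, since a shared seed is what groups miRNAs into families, followed by let-7i of the growth-restraining let-7 family, which was picked after its values were seen.
miR-193a-3p, chr17: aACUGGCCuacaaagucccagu
miR-193b-3p, chr16: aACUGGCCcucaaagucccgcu
miR-130b-3p, chr22: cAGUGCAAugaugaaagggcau
miR-301b-3p, chr22: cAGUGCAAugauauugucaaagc
let-7i-5p, chr12: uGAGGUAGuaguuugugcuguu

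The pair with seed ACUGGCC came from loci on separate chromosomes. At MIR193A the −log10 q was 45.4 and 43.0 with DMSO against 61.8 and 48.5 with ACBI1 in H1975, and 30.6 and 35.8 with DMSO against 27.4 and 26.9 with ACBI1 in HCC44, so the order of the treatments differed between the lines. At MIR193B it was 35.5 and 35.4 with DMSO against 33.9 and 35.0 with ACBI1 in H1975, and 21.4 and 18.9 with DMSO against 18.6 and 23.8 with ACBI1 in HCC44. The pair with seed AGUGCAA shared a single region, chr22:21651417-21652606, with rank differences of −6.90 and −4.78. At MIRLET7I it was 186 and 171 with DMSO against 240 and 146 with ACBI1 in H1975, and 92.2 and 78.2 with DMSO against 85.0 and 87.5 with ACBI1 in HCC44, with overlap in both lines.

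The 10 strongest retained distal regions were chosen by their mean rank of −log10 q over all 8 lists. That choice leaves little room for a difference, and their rank differences lay between −2.01 and +0.81. Of these 10, 6 lay at inner coding starts: PCNA, FUT8 (core fucosyltransferase of N-glycans), CHD1L (a chromatin remodeller activated by poly-ADP-ribose), ZFP1, PNPLA8 (a phospholipase) and AHCY (S-adenosylhomocysteine hydrolase). A seventh lay inside C14orf93. The other 3 were on chromosome 8 around MYC, which drives growth: the PVT1 region, chr8:127851191-127854929 at 108240 bp from MYC, and chr8:128175221-128178068 at 432270 bp. The last of these had the highest mean rank of all, 99.98, with −log10 q of 453 and 473 with DMSO against 790 and 500 with ACBI1 in H1975, and 294 and 273 with DMSO against 354 and 344 with ACBI1 in HCC44. Every ACBI1 value was above every DMSO value of its line, although ACBI1 lists held fewer peaks. By fold enrichment, all 3 chromosome 8 regions were below the median of the retained distal regions in every list. The last had a fold of 4.02 and 4.80 in the H1975 DMSO lists, against medians of 6.77 and 6.97.

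A neighbour in the same locus had one of the largest differences in the other direction. At chr8:128167362-128169389, 424411 bp from MYC, −log10 q was 383 and 259 with DMSO against 25.6 and 14.2 with ACBI1 in H1975, and 394 and 378 with DMSO against 27.4 and 29.6 with ACBI1 in HCC44. Its rank was at least 99.7 in every DMSO list and between 2.83 and 34.2 in the ACBI1 lists. A peak was called in all 8 lists at both neighbours, so presence alone did not separate them.

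The largest lower rank was inside NFATC2, a transcription factor of calcium signalling, at chr20:51487406-51488279. Its −log10 q was 143 and 110 with DMSO against 32.2 and 16.4 with ACBI1 in H1975, and 168 and 117 with DMSO against 17.4 and 11.7 with ACBI1 in HCC44. The next were inside GNG2, a G protein gamma subunit gene (rank differences −72.1 and −96.4), the chromosome 8 region above (−95.0 and −69.8), inside ANO10, a gene of the anoctamin family (−75.1 and −85.7), and at LOC389602, 149167 bp from SHH (−77.2 and −80.5). These are values of regions picked for their difference and carry no test.

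Regions of this kind were rare. Of 362 retained distal regions with a rank of at least 75 in all 4 DMSO lists, 10 (2.76%) ranked under 25 in all 4 ACBI1 lists and 179 (49.4%) ranked at least 75 in all 4. Of 1302 retained gene-end regions with a rank of at least 75 in all DMSO lists, 0 ranked under 25 in all ACBI1 lists and 968 (74.3%) ranked at least 75. The 10 lay inside ANO10, AOAH, GNG2, SGSM2, ADORA2B and NFATC2, with 2 inside VAC14, and at LOC389602 and LOC284009, all named here after their values were seen. Of 1130 retained distal regions that ranked under 25 in all DMSO lists, 0 ranked at least 75 in all ACBI1 lists.

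The largest higher ranks were smaller. The first was chr1:156689118-156689915, 9691 bp from CRABP2, a retinoic acid carrier gene. Its −log10 q was 35.9 and 29.9 with DMSO against 98.7 and 58.2 with ACBI1 in H1975, and 34.6 and 31.3 with DMSO against 59.1 and 57.1 with ACBI1 in HCC44. The others were at LOC124902294 on chromosome 9 (rank differences +38.0 and +55.9), near MMP14, a membrane metalloproteinase gene (+31.6 and +54.6), at an inner start of CTTNBP2NL (+35.7 and +50.4), and near BICRA, a gene for a subunit of the non-canonical SWI/SNF complex (+22.5 and +52.4).

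Rank differences ran alike in the lines. Across the 5779 regions Pearson's r between the H1975 and HCC44 differences was 0.715 and Spearman's rho 0.668, given as a description, since regions of a list share a library and a ranking. The mean rank was lower with ACBI1 in both lines for 2203 of the 5779 regions and higher in both for 2190. Neither the correlation nor these counts is set beside all 15070 retained regions, so they do not set distal regions apart.

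**Figure D4:**
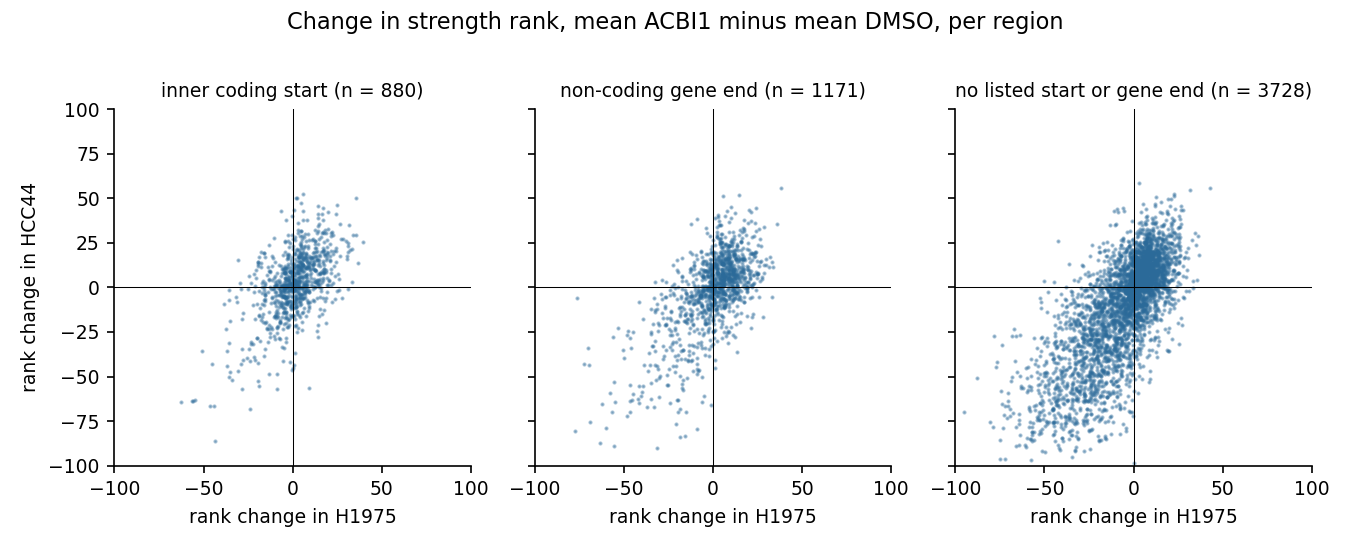
Difference in strength rank (mean ACBI1 minus mean DMSO, points of the 0 to 100 scale) in H1975 against HCC44, 1 point per retained distal region, for 880 regions at inner coding starts, 1171 at non-coding gene ends and 3728 at neither. The tail toward lower ranks in both lines holds most points in the third panel, where the NFATC2 region lies at −75.2 and −96.4.

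The widest retained distal region was 5520 bp, at LOC124902040 inside PLEC, a gene of a cytoskeletal linker, on chromosome 8. Its peaks summed to 2501 and 2470 bp with DMSO against 2537 and 2337 bp with ACBI1 in H1975, and 4323 and 3187 bp with DMSO against 1580 and 1394 bp with ACBI1 in HCC44. It was narrower with ACBI1 in HCC44, without overlap, and the treatments overlapped in H1975. The next were chr8:127873138-127878307 near MYC, a region inside STRN4, one at LINC00673, and the 4 tRNA genes on chromosome 1.

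Retained distal regions were most crowded at 3 places of at most 200 kb. The places were chosen for their number of retained regions, so a high retained share there follows in part from the choice. On chromosome 8 from 127793786 to 127971917, 14 of 15 distal regions open in all DMSO lists were retained and none was lost, with no protein-coding gene between them. On chromosome 6 from 27078804 to 27252122, 11 of 12 were retained, 6 of them at tRNA genes, among H2BC11, H2AC11, H2BC12, H4C9 and H2AC12, which encode core histones, and PRSS16. On chromosome 1 from 155961612 to 156130566, 9 of 12 were retained, in a stretch that holds ARHGEF2, SSR2, UBQLN4, LAMTOR2, RAB25, MEX3A and LMNA, the gene of lamin A.

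The genes of the degraded proteins each had 1 retained distal region within the gene or 50 kb of it. SMARCA2 had 1 of 2 DMSO-shared distal regions retained, SMARCA4 1 of 6 with 3 lost, and PBRM1 1 of 2 with 1 lost. The SMARCA4 region, chr19:11035296-11036198, lay inside the gene, with −log10 q of 66.0 and 53.0 with DMSO against 58.1 and 33.9 with ACBI1 in H1975, and 68.1 and 65.2 with DMSO against 43.3 and 40.8 with ACBI1 in HCC44. The treatments overlapped in H1975 and not in HCC44. The PBRM1 region had rank differences of −9.46 and −30.5, and that near SMARCA2 of −0.471 and −5.73. ARID1A, a subunit of the BAF form, kept 1 of 5 regions, ARID1B, its paralog, 3 of 9, and SMARCC1, a core subunit, 3 of 6. The ARID1A region and the SMARCC1 regions lay outside the named gene, some of the latter inside CSPG5 or DHX30. One ARID1B region, chr6:157148389-157149264, was much weaker with ACBI1, with −log10 q of 82.2 and 66.6 with DMSO against 23.7 and 19.5 with ACBI1 in H1975, and 108 and 95.2 with DMSO against 25.2 and 17.8 with ACBI1 in HCC44. In the whole SWI/SNF list, 10 of 18 genes had a retained distal region, and 17 of 45 regions (37.8%) were retained and 11 (24.4%) lost.

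By the same measure, 7878 of 19974 protein-coding genes (39.4%) had a retained distal region, and of the 15822 DMSO-shared distal regions at these genes 32.8% were retained and 35.6% lost. The shares of the YAP and TEAD, growth signalling, and STING and interferon lists below were near that share of retained regions. The list of AP-1 genes stood at 9 of 11 genes and 27 of 43 regions (62.8%), with 9 lost. Of its members, singled out after values were seen, FOSB had 6 of 6 regions and ATF3 6 of 10 retained, although 2 of the ATF3 regions were much weaker with ACBI1, the first with rank differences of −46.0 and −68.9 and the second with −53.1 and −82.2. All of the FOSB regions lay outside FOSB. Apart from that at the tRNA gene TRU-TCA1-1, they were inside or nearest to ERCC1 or inside VASP. The YAP and TEAD list, of the Hippo pathway's effectors and targets, had 10 of 12 genes and 16 of 46 regions (34.8%), with 16 lost. Growth signalling had 6 of 10 genes and 15 of 42 regions (35.7%), with 6 lost. There EGFR, the receptor kinase, kept 5 of 10 regions, with rank differences between −39.9 and −0.222 in H1975 and between −84.9 and +4.82 in HCC44. The list of STING and interferon genes had 8 of 25 genes and 10 of 29 regions (34.5%). Of these 29, 14 (48.3%) were lost, against 35.6% over all protein-coding genes. In it STING1, the adaptor of DNA sensing, and CGAS, the sensor, each had a single DMSO-shared distal region, and both were retained. Both lay outside the named gene, the first nearest to UBE2D2 and the second inside OOEP. IL6 also kept its only one, whereas IKBKE, IRF3, IFIT1, IFIT3, CD274 and IL1B had all of theirs lost. Lung lineage genes had 3 of 12 genes and 5 of 23 regions (21.7%), with 14 lost, and genes of the epithelial to mesenchymal transition 2 of 9 genes and 2 of 18 regions (11.1%), with 8 lost. Of 10 housekeeping genes, 4 had a retained distal region, with 9 of 16 regions (56.3%) retained and 2 lost, and ACTB, which encodes beta-actin, had 5 of 6. The ACTB regions lay outside the gene, inside FBXL18 or nearest to FSCN1 or ACTB itself. The lists are short and neighbouring genes share regions, so these counts describe the lists only.

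Sequence was compared in RefSeq's start windows, 250 bases before to 50 after each listed start of protein-coding and lncRNA genes, where 1335 of the 5779 regions overlapped a window. Each motif was searched on both strands, and windows with the same letters were counted once. Windows at retained distal regions (1840) had a median of 65.7% G or C and 24 CpG dinucleotides, against 66.7% and 28 at retained gene-end regions (11926), 47.7% and 3 at lost distal regions (153), and 58.7% and 14 over all windows (34683). The GC box (GGGCGG), bound by SP family factors, was in 65.7% of windows at retained distal regions, 75.5% at retained gene-end regions, 13.7% at lost distal regions and 45.0% of all. The ETS motif (CCGGAAG) was in 12.4%, 20.6%, 3.92% and 10.2%, and the CTCF core (CCANNAGNNGGC), of the factor that anchors chromatin loops, in 4.08%, 2.76%, 2.61% and 2.41%. The CCAAT box was spread more evenly, in 33.3%, 34.9%, 30.1% and 34.6%. The TEAD motif (GGAATG) of the Hippo pathway's factors was in 12.7%, 10.1%, 22.9% and 14.0%, and the FOXA motif (TGTTTAC) in 2.99%, 2.08%, 11.1% and 3.43%. NRF1 (CGCATGCG) matched 3.10%, 4.302%, 0% and 2.004%, and the tRNA B box (GGTTCGANT) and REST (TTCAGCACC) each matched under 0.5% of windows at every kind of region.

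Among the start windows, the AP-1 motif (TGANTCA) was most frequent at lost distal regions, where the GC box was least frequent. It was in 8.42% of windows at retained distal regions, 3.77% at retained gene-end regions, 41.8% at lost distal regions and 7.70% of all. Among retained distal regions, it was in 54 of 226 windows (23.9%) whose region ranked lower with ACBI1 in both lines, in 87 of 1250 (6.96%) whose region did neither, and in 14 of 364 (3.85%) whose region ranked higher. Median G or C was 60.8%, 66.7% and 65.0% in the same order, and the GC box was in 48.7%, 68.2% and 67.6%. The group with the highest AP-1 share thus had the lowest G or C and the lowest GC box share, while the other 2 groups were close in both. The part of base composition was not tested. The RUNX1-AS1 sequence printed above, with 2 AP-1 motifs, is from the first of these groups, with rank differences of −56.5 and −70.1. So is the DANCR sequence, with rank differences of −23.6 and −13.0, which held no AP-1 motif and was 66.8% G or C. Most windows of that group had no AP-1 match. A match is a string of letters in the window, not evidence of binding, and 4444 retained distal regions had no listed window and were not searched. Only 153 windows lay at the 7060 lost distal regions, so most of those were not searched either.

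**Figure D5:**
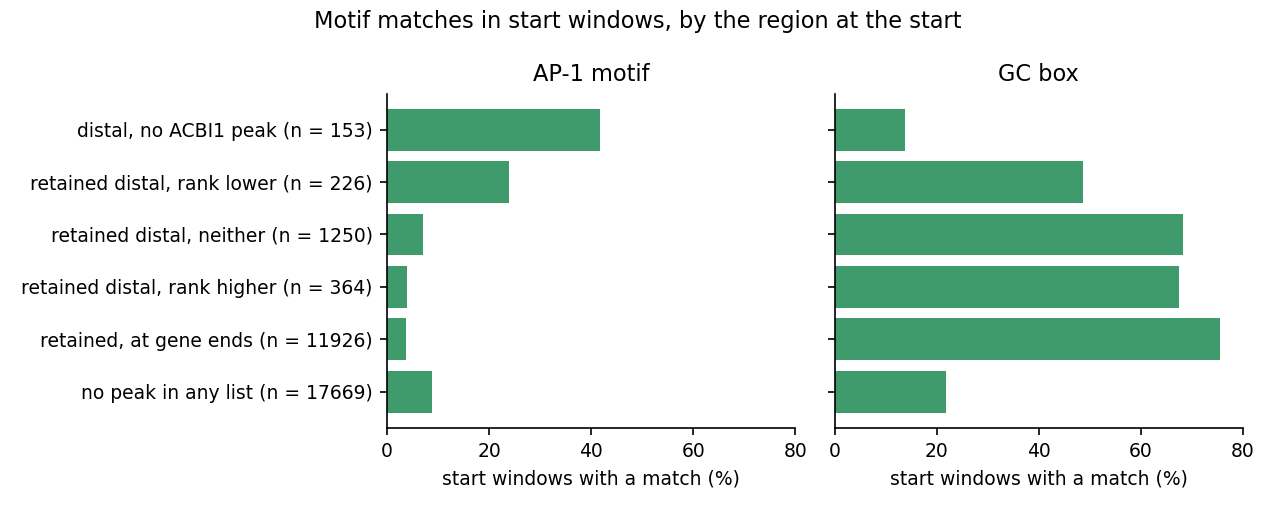
Share (%) of distinct start windows with a match to the AP-1 motif (left) and to the GC box (right), by the region at the start; n is the number of windows. The AP-1 share is 41.8% at distal regions with no ACBI1 peak, 23.9% at retained distal regions that ranked lower with ACBI1 and 3.85% at those that ranked higher, and the GC box share is lowest, 13.7%, at distal regions with no ACBI1 peak.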

How the data were processed

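The files were 8 ATAC-seq broad peak lists, 1 per sample, deposited by the authors. The submitters' processing notes name BWA and hg38, with no version or role, and the peak caller is not given in the sources used here. Fold enrichment (a ratio) and −log10 p and q per peak are the authors' deposited values, and the deposited score column was not used. The lowest −log10 q in any list was 10.04. Libraries had 11 PCR cycles per the labels' protocols. Peaks were merged across lists with Python 3.11.15, numpy 2.4.6, pandas 2.3.3 and scipy 1.17.1. Gene positions, promoter windows and miRNA sequences came from RefSeq tables of GRCh38.p14. No genome was used, so motifs were searched only in start windows of 300 bases. Several peaks in a region were reduced to their highest value and summed width. Medians of within-list ranks were compared by exact permutation of treatments within lines, and the region calls, with no test, required both ACBI1 lists to lie beyond both DMSO lists in both lines. A simulation with known differences was used to test the scripts. The text names the 10 strongest, 5 widest and 5 most changed regions in each direction, and members of the gene lists. The regions and lists were chosen with earlier results of these data known.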

Additional observations from a re-analysis of the deposited data

How the results depend on the processing

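The signs of the rank differences over all retained distal regions and at no listed start or non-coding end held in every alternative run for them. At inner coding starts the sign held over both lines, but with a minimum −log10 q of 20 the difference was 0.0 in H1975 and 1.19 over both lines (exact permutation test, p = 0.222). The sign of the width difference did not hold. Raising the minimum −log10 q to 20 left 3549 retained distal regions, 30.4% of those retained, 28.1% at a non-coding gene end, with 715 lower and 474 higher in rank, an AP-1 share of 7.15% and a width difference of 0.0843 in H1975, 0.0454 in HCC44 and 0.0649 over both lines (exact permutation test, p = 0.0556). A minimum fold of 5 left 1594 regions, and requiring each list to cover 50% of a region left 2814. Windows of 5 kb at gene ends gave 30.6% distal, 49.5% inside genes and width differences of −0.0204 over both lines and −0.0114 in H1975, and windows of 5 kb at non-coding ends gave 36.6%. Ranking by fold gave 568 higher regions. Allowing 1 mismatch gave 41.4% for CTCF and 49.9% for AP-1. Leaving out 1 replicate at a time gave 5823 to 6546 regions and 38.5% to 41.0% distal, with the most regions without H1975 ACBI1 replicate 2. The rank difference then ran from −7.85 to −6.30 (H1975 −5.97 to −4.05, HCC44 −10.2 to −8.47), that at no listed start or non-coding end from −9.75 to −7.70 (H1975 −7.84 to −5.23, HCC44 −12.3 to −10.2) and that at inner coding starts from 1.91 to 3.20 (H1975 1.27 to 2.5, HCC44 2.15 to 3.90). Lower calls ran from 1559 to 1896 and higher calls from 1258 to 1521. With 1 list left out, a peak in every list and a call are both easier to meet, so larger counts follow from the rule. The width difference ran from −0.0386 to 0.0193 (H1975 −0.0609 to 0.0750, HCC44 −0.0474 to −0.00280), with reversed values of −0.00256, −0.00230, −0.00245, −0.0275 and −0.00757 among them. The cause was not tested. With the replicate number as a block, the rank difference of −7.28 had p = 0.125 by an exact permutation test, the smallest of that design. The region calls do not use the replicate number. The deviations of same-numbered replicates correlated at r = 0.354 in H1975 and 0.159 in HCC44, the same value for both numbers. With 2 pairs per comparison, these are too few to show pairing. Peak lists give no read depth, so a missing peak cannot be told apart from a shallow library.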
